A study of Mus musculus with 24 samples.

Results

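KO-8-homo tumors, 3 bulk RNA libraries of colorectal tumors from mice whose labels give a homozygous c-MAF knockout, were compared with WT-young tumors, 4 libraries from mice labelled as young wild type. The members are all the libraries of these groups, chosen by their titles and not by any measured value, and they are 7 of the 24 libraries of the study. The other 17 are tumors and normal colorectal tissue of heterozygous knockout, older wild-type and the same homozygous knockout and young wild-type mice. All groups, normal tissue included, carry the treatment label AOM/DSS, in which the carcinogen azoxymethane is followed by dextran sulfate sodium, an agent that injures the colon lining. The labels give no age beyond young and old, and the titles use these words for wild-type mice only. Whether KO-8-homo and WT-young mice were of like age is therefore not known. The labels give no strain, sex, promoter or Cre driver. They also do not say what the 8 in the knockout's name stands for or whether the libraries of a group come from separate mice. The p-values therefore measure the spread between these libraries, which may be technical. In bulk tissue, fewer cells of a type and less RNA per cell cannot be told apart.

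c-MAF, encoded by Maf, is a bZIP transcription factor of T cell subsets, macrophages and the lens. Interferons act through transcription factors that bind short motifs near their target genes and raise a programme that includes guanylate-binding proteins, immunity-related GTPases, the immunoproteasome and MHC class I. In the colon this programme is active in inflamed epithelium and in many infiltrating cells, and MHC class I presents peptides to CD8 T cells.

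Values are FPKM (fragments per unit of transcript length and of library size), and differences are KO-8-homo minus WT-young values of log2(FPKM + 1), so that changes of genes near 1 FPKM appear smaller than they are. A gene passed when its adjusted p from limma, a linear model fitted across the 12961 genes at 1 FPKM or more in at least 3 of the 7 tumors, was below 0.05. Between 12332 and 12886 genes reached 1 FPKM in a library, and the relative sequencing depth read from the lowest values ran from 0.737 in WT-young tumor 4 to 1.07. WT-young tumor 4 stood apart, at 50.2 on the first principal component (50.2% of the variance) against −30.4 to 11.4 for the other 6. WT-young tumor 2 carried keratinocyte genes of stratified epithelium, with Krt5 at 250 FPKM against 0.211 to 0.342 in the other 6 tumors. Correlations between libraries were 0.949 to 0.985 within a group and 0.928 to 0.978 between groups.

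The targeted gene did not follow the label. Maf was at 3, 4.73 and 4.05 FPKM in the tumors labelled KO-8-homo, a mean of 3.93 ± 0.870 (SD, n = 3). It was at 2.26, 1.92, 1.90 and 1.63 FPKM in WT-young tumors, 1.93 ± 0.256 (SD, n = 4). All 3 KO-8-homo tumors lay above all 4 WT-young ones, with a mean difference of 0.74 on the log2 scale. The two-sided exact permutation p was 0.0286, the smallest that 3 against 4 libraries allow, and 0.143 after adjustment over the 5 genes tested this way. limma gave an adjusted p of 0.068 over all genes. Normal tissue was alike in order, at 6.27 and 3.99 FPKM under the knockout label and 2.76 and 2.82 FPKM in WT-young. Outside the comparison, Maf was at 7.26 FPKM in the single WT-old tumor, above every KO-8-homo tumor, and at 2.62 to 7.4 FPKM in heterozygous tumors. High Maf in tumors was therefore not found under the knockout label alone. A gene total cannot show a deletion that leaves the rest of the transcript, and the labels do not say which stretch of Maf was removed, so this value does not check the genotype. Maf lies at chr8:115682942-115707794 on the minus strand (GRCm38). The small Maf genes Maff (−0.11), Mafg (0.38) and Mafk (0.06) and the Maf neighbour Wwox (−0.08) had exact permutation p-values of 0.314, 0.114, 0.83 and 0.343. Of 14 reported c-MAF target genes 7 were high enough to be tested, 0 passed, and their median difference was 0.30 (0.37 in normal tissue).

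Across all genes the difference was small in number and one-sided in direction. limma passed 131 genes (1.01% of those tested), of which 113 (0.872%) were lower and 18 (0.139%) higher in KO-8-homo tumors, while the median difference over all genes was −0.0022. At an unadjusted p below 0.05 the numbers were 1417 lower and 1151 higher, a milder imbalance than in the genes that passed. The ranges of the groups were apart for all 131. Among all genes tested, ranges were apart with the KO-8-homo tumors lower in 1547 (11.9%) and higher in 1202 (9.27%). Of the 113 lower genes, 43 belonged to 3 lists of interferon and antigen presentation genes with 69 tested members, 5 belonged to the cell cycle list and 62 to none of the 38 lists. The number passed depended on single libraries. It was 57 without KO-8-homo tumor 1, 32 without KO-8-homo tumor 2 (none of them higher) and 50 without KO-8-homo tumor 3. It was 83, 58 and 50 without WT-young tumor 1, 2 and 3, and 183 without WT-young tumor 4. In each of these 7 fits 29 of the 131 genes passed, all lower, and they included 11 GTPases, 8 genes of antigen presentation and 3 other interferon-stimulated genes.

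**Figure D1:**
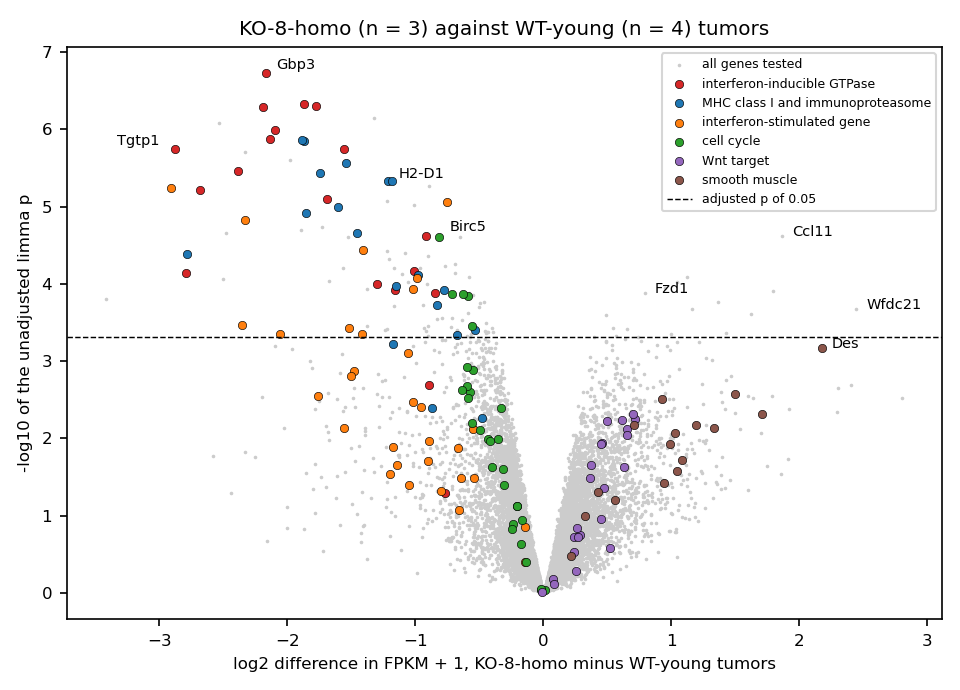
Each point is one of 12961 genes, with the log2 difference of KO-8-homo minus WT-young tumors on the x axis and −log10 of the unadjusted limma p on the y axis. Points above the dashed line passed an adjusted p of 0.05. Interferon-inducible GTPases (red), antigen presentation genes (blue) and interferon-stimulated genes (orange) fill the upper left, and no Wnt target (purple) or smooth muscle gene (brown) is above the line.

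The interferon-inducible GTPases, which coat and disrupt the vacuoles of intracellular microbes, were the group furthest from 0. Of 19 tested, 17 fell, none rose, and the ranges were apart for 18. Their median difference was −1.77, against −0.0022 for all genes, and −0.08 for the same genes in normal tissue. Their FPKM summed to 139 to 168 in KO-8-homo tumors and 577 to 863 in WT-young tumors. Gbp11, Gvin1 and Mx2 were too low to be tested. Many of these genes have near-identical neighbours (Tgtp1 and Tgtp2, the Gbp clusters), so that reads may be split between copies and single values are less certain than the group.

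The promoters of 4 genes are shown because they carry, within 250 bases before the start site, the motif through which interferon signalling reaches its targets. They are from RefSeq (GRCm38.p6), written 5′ to 3′ on the gene's strand. Capitals mark GAAA, any 2 bases and GAAA again, a core of the interferon-stimulated response element (ISRE), or TTC, any 3 bases and GAA, a gamma interferon activation site (GAS), on either strand. Irgm1 is at chr11:48871421-48871670 (minus strand), Igtp at chr11:58199306-58199555 (plus), Gbp2 at chr3:142620413-142620662 (plus) and B2m at chr2:122147437-122147686 (plus).
Irgm1: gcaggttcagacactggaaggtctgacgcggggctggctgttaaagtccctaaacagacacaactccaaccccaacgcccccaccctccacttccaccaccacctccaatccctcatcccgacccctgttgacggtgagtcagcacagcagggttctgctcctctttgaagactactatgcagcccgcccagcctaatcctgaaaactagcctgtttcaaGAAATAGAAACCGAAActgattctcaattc
Igtp: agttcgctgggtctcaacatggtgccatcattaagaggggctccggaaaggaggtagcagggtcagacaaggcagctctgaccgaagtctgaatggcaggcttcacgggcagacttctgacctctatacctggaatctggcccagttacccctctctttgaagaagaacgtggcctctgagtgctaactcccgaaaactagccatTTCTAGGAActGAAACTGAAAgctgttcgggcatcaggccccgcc
Gbp2: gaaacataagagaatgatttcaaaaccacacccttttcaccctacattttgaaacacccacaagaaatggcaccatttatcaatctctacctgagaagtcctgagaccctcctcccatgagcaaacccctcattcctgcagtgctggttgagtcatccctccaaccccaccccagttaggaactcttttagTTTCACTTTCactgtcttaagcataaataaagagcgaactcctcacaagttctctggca
B2m: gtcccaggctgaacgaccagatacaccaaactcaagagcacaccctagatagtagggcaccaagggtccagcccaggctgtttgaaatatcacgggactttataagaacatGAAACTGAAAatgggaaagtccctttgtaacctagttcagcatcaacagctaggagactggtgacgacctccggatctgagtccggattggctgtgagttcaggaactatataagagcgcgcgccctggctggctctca
Irgm1 holds overlapping ISRE matches that begin 30 and 24 bases before the start. Igtp has an ISRE match 34 bases and a GAS match 45 bases before it. The Gbp2 match lies 59 bases before the start on the opposite strand, and that of B2m 139 bases before.

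Counted over 300-base windows, from 250 bases before to 50 after the start, the ISRE letters were in 1131 of 32851 promoters (3.44%) and in 383 of the 9834 tested genes with an entry. They were in 20 of the 79 genes that fell and had an entry (25.3%), in 10 of 11 GTPases, 13 of 23 interferon-stimulated genes and 5 of 16 antigen presentation genes. The GAS letters were in 8.30% of all promoters, in 14 of those 79 and in 7 of the 11 GTPases. A match is a description of the letters and not a bound site. Of 109 fallen genes with a position, 16 (14.7%) were on chromosome 11, which holds Irgm1, Igtp and Tgtp1 and 8.54% of the tested genes with a position. Chromosome 17, with the MHC, had 14 (12.8%) against 5.34% of tested genes, and chromosome 3, with Gbp2, had 10 (9.17%) against 4.88%.

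Among the GTPases, Tgtp1, named as a T cell-specific GTPase, had the largest log2 difference. The name does not show which cells carried it here. It was at 4.28, 2.18 and 1.71 FPKM in KO-8-homo tumors and at 25.6, 27.8, 23.2 and 24.6 FPKM in WT-young tumors. The 4 wild-type values were close together and the highest KO-8-homo value was far below them. The mean FPKM was 9.28 times as high in WT-young, and the log2 difference was −2.88 with a standard error of 0.22 (limma adjusted p = 0.00195).

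Gbp3, a guanylate-binding protein, had the smallest p of all GTPases. It was at 6.61, 6.42 and 5.92 FPKM in KO-8-homo and at 27.5, 31.0, 30.9 and 38.7 FPKM in WT-young tumors, a difference of −2.17 with a standard error of 0.12 (limma adjusted p = 0.00168). The ranges were narrow within each group and well apart.

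Irgm1, a regulatory GTPase that guards the cell's own membranes, was at 21.1, 24.3 and 19.7 against 74.5, 77.5, 78.7 and 96.7 FPKM, a difference of −1.87 (adjusted p = 0.00168). Igtp, also called Irgm3, was at 16.4, 16.9 and 12.3 against 61.8, 61.6, 72.5 and 85.2 FPKM, a difference of −2.13 (adjusted p = 0.00184). In both, every wild-type tumor was above every KO-8-homo tumor.

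Gbp2 was at 23.7, 15.0 and 20.9 FPKM in KO-8-homo and at 107, 111, 119 and 284 FPKM in WT-young tumors (−2.79, limma adjusted p = 0.0178). Its highest value came from WT-young tumor 4, and the other 3 wild-type tumors were also far above the KO-8-homo values. Iigp1, an effector GTPase, differed by −2.68, Gm12250 by −2.38, Gm4951 by −2.19, Tgtp2 by −2.09, Ifi47 by −1.77 and Gbp4 by −1.56, with adjusted p-values of 0.00362, 0.00277, 0.00168, 0.00184, 0.00168 and 0.00195. Gbp8 (−0.92) and Gbp9 (−0.85) passed with smaller differences. Irgm2 (−0.90, adjusted p = 0.0848) and Mx1 (−0.77, adjusted p = 0.254) did not pass. The number that fell was 11 without KO-8-homo tumor 2 or without KO-8-homo tumor 3, and 13 to 17 without any other library.

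The machinery of MHC class I antigen presentation fell with them. Of 19 tested members 16 fell and none rose, the ranges were apart for 19 of 19, and the median difference was −1.19 (−0.25 in normal tissue). The summed level was 2095 to 2569 FPKM in KO-8-homo tumors and 5255 to 6714 FPKM in WT-young tumors. H2-Q6 was too low to be tested. The H2-Q and H2-T genes are close copies of each other, and their reads may be shared.

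The transcriptional activator of the pathway, Nlrc5, was at 3.50, 2.42 and 1.97 FPKM against 10.4, 11.2, 11.8 and 10.4 FPKM in WT-young tumors. The wild-type values lay within a narrow band, above all 3 KO-8-homo values. The difference was −1.74 with a standard error of 0.14 (limma adjusted p = 0.0028).

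B2m, the light chain shared by all class I molecules, was at 955, 747 and 663 FPKM in KO-8-homo and at 2050, 1890, 2150 and 2510 FPKM in WT-young tumors (−1.45, limma adjusted p = 0.00833). The heavy chain gene H2-K1 was at 477, 413 and 381 against 1190, 1070, 1310 and 1370 FPKM (−1.54, adjusted p = 0.00234). H2-D1, the other classical heavy chain, was at 378, 373 and 350 against 786, 769, 936 and 933 FPKM (−1.21, adjusted p = 0.00323). Each of these abundant transcripts was at least 2.33 times as high in mean FPKM in WT-young tumors, with ranges apart. Of the non-classical heavy chains, H2-Q7 differed by −2.79, H2-Q9 by −2.54, H2-Q4 by −1.60, H2-T22 by −1.19 and H2-M3 by −0.53, and all of these passed. H2-T23 (−0.87, adjusted p = 0.107) did not.

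The immunoproteasome subunits, which replace the constitutive catalytic subunits under interferon gamma, fell in parallel. Psmb9 was at 27.0, 24.3 and 19.6 against 83.5, 85.8, 83.9 and 107 FPKM (−1.89, limma adjusted p = 0.00184). Psmb8 was at 52.4, 40.5 and 38.5 against 146, 153, 159 and 189 FPKM (−1.87, adjusted p = 0.00184). Psmb10 differed by −1.15 and the proteasome activator subunit Psme1 by −0.78, with adjusted p-values of 0.0214 and 0.0223. The peptide transporter subunit Tap1 was at 15.3, 14 and 11.1 against 43.0, 44.2, 51.6 and 68.9 FPKM (−1.86, adjusted p = 0.00566). Its partner Tap2 differed by −1.18 but did not pass (adjusted p = 0.0511). The peptide-loading protein Tapbp fell by 0.67, and the trimming peptidase Erap1 differed by −0.48 (adjusted p = 0.119). The number of the list that fell was 8, 9, 9 and 10 without KO-8-homo tumor 2, KO-8-homo tumor 3, WT-young tumor 3 and WT-young tumor 2, and 11 to 16 without any other library.

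Of the 31 other interferon-stimulated genes tested, 10 fell, none rose, and all 31 had a value below 0, with a median of −1.05 (−0.15 in normal tissue) and ranges apart for 22. Ido1, which degrades tryptophan and is strongly induced by interferon gamma, was at 13, 8.09 and 8.01 FPKM in KO-8-homo and at 68.4, 59.4, 76.3 and 117 FPKM in WT-young tumors. No KO-8-homo value came near the wild-type range. The difference was −2.91 with a standard error of 0.26 (limma adjusted p = 0.00354).

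The CXCR3 ligands, which draw activated T cells, were lower as well. Cxcl10 was at 7.08, 6.82 and 3.73 against 41.0, 34.7, 33.1 and 24.2 FPKM (−2.33, limma adjusted p = 0.00673). Cxcl9 was at 10.5, 4.09 and 4.16 against 41.0, 48.1, 31.6 and 19.7 FPKM (−2.36, adjusted p = 0.0445). WT-young tumor 4, which had the highest Gbp2, had the lowest value of both chemokines among the wild-type tumors.

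Irf9, the DNA-binding part of the type I interferon complex, was at 20.3, 21.9 and 21.0 against 34.3, 35.3, 37.9 and 37.5 FPKM (−0.76, limma adjusted p = 0.00452). Its values were close together within each group and apart between them. Irf1, a factor induced by interferon gamma, had ranges apart and a difference of −1.06 but an adjusted p of 0.0566. Ifit2, an antiviral protein, fell by 2.06. Isg15, a ubiquitin-like protein, differed by −1.76 with an adjusted p of 0.0954, and had KO-8-homo values of 11.8, 27.9 and 14.9 FPKM and wild-type values of 36.6, 45.4, 90.6 and 87.4 FPKM. Xaf1 (−1.41), Parp14 (−1.01), Zbp1 (−1.52) and Rtp4 (−1.42) passed. Irf8 (−0.15, adjusted p = 0.642), Ddx58, which encodes the RNA sensor RIG-I (−0.14, adjusted p = 0.39), and Cd274, which encodes PD-L1 (−1.17, adjusted p = 0.156), did not. The number that fell was 3 without WT-young tumor 3, 4 without KO-8-homo tumor 2 or 3, 5 without WT-young tumor 2, 6 without KO-8-homo tumor 1, 7 without WT-young tumor 1 and 10 without WT-young tumor 4. It was 4 with all 24 libraries in the fit and 6 with no filter on low values.

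Interferon gamma itself was too low to be tested. Ifng was at 0.184, 0.0855 and 0.040 FPKM in KO-8-homo tumors and at 0.421, 0.428, 0.565 and 1.03 FPKM in WT-young tumors, so the ranges were apart at levels near or under 1 FPKM. T cell transcripts did not separate the groups as a whole. The 15 T cell and cytotoxic genes tested had a median of −0.07 with 0 passed, and summed to 42.7 to 53.5 FPKM in KO-8-homo and 32.5 to 66.9 FPKM in WT-young tumors. Cd3e, a chain of the T cell receptor complex, was at 1.75, 1.44 and 1.67 against 1.40, 0.878, 2.41 and 2.07 FPKM, with overlapping ranges.

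Other genes of that list were above or below 0 without passing. Nkg7, a granule gene of cytotoxic T and NK cells, was at 1.91, 1.93 and 1.39 against 6.66, 2.86, 10.6 and 11.4 FPKM (−1.56, limma adjusted p = 0.11). Cd8a had overlapping values of 0.615, 1.08 and 0.470 against 1.19, 0.430, 2.44 and 2.32 FPKM. Cd4 was at 4.06, 3.53 and 2.93 against 2.28, 2.50, 2.18 and 1.40 FPKM, higher in every KO-8-homo tumor but with an adjusted p of 0.142. None of these passed, and their part in the interferon result was not tested.

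MHC class II genes, which present peptides to CD4 T cells and are also induced by interferon gamma, had 0 of 9 passed and a median of −0.83. Cd74, the invariant chain, was at 453, 508 and 348 against 566, 637, 851 and 1310 FPKM (limma adjusted p = 0.173), and H2-Aa at 349, 272 and 265 against 373, 442, 425 and 1060 FPKM (adjusted p = 0.249). The ranges of both were apart, narrowly, and WT-young tumor 4 was the highest library. The class II activator Ciita differed by −0.95 (adjusted p = 0.104) and the peptide-exchange subunit H2-DMb1 by −1.24 (adjusted p = 0.0809).

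Libraries outside the comparison were placed on the 29 genes that passed in all 7 leave-one-out fits. In the normal tissue of KO-8-homo mice 26 and 28 of the 29 were at or below the highest KO-8-homo tumor, and in WT-young normal tissue 25 and 23. The median log2(FPKM + 1) over the 29 genes was 3.43 and 2.91 in KO-8-homo normal tissue, 3.11 and 3.07 in WT-young normal tissue, 3.89, 3.54 and 3.60 in KO-8-homo tumors and 5.50 to 5.77 in WT-young tumors. Heterozygous knockout tumors mostly lay higher. No gene of the 29 was at or below the highest KO-8-homo value in KO-1-hetero tumors 1 and 3 or in KO-8-hetero tumors 1 and 3, and 13 or 14 of the 29 reached the WT-young range in each. KO-1-hetero tumor 2 was the exception, with 10 of the 29 in the KO-8-homo range and 0 in the WT-young range. KO-8-hetero tumor 2 had 4 of the 29 in either range, and the single WT-old tumor 2 in the first and 13 in the second. These genes were chosen on the 7 tumors compared, so their placement there is not a test.

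KO-1-hetero tumor 2 had Gbp2 at 25.3, Cxcl10 at 6.75, Ido1 at 4.87 and Ifng at 0.0622 FPKM, whereas KO-1-hetero tumors 1 and 3 had Cxcl10 at 56.7 and 28.1 and Ifng at 0.585 and 1.06 FPKM. A tumor with low interferon genes was therefore not found under the homozygous label alone. With the WT-old tumor added to the wild-type arm, 56 genes passed, 11 of them GTPases. With all 14 tumors in a fit of 5 groups, which takes its spread from the heterozygous tumors too, 36 genes passed, 10 of them GTPases, 5 antigen presentation genes and 2 other interferon-stimulated genes.

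**Figure D2:**
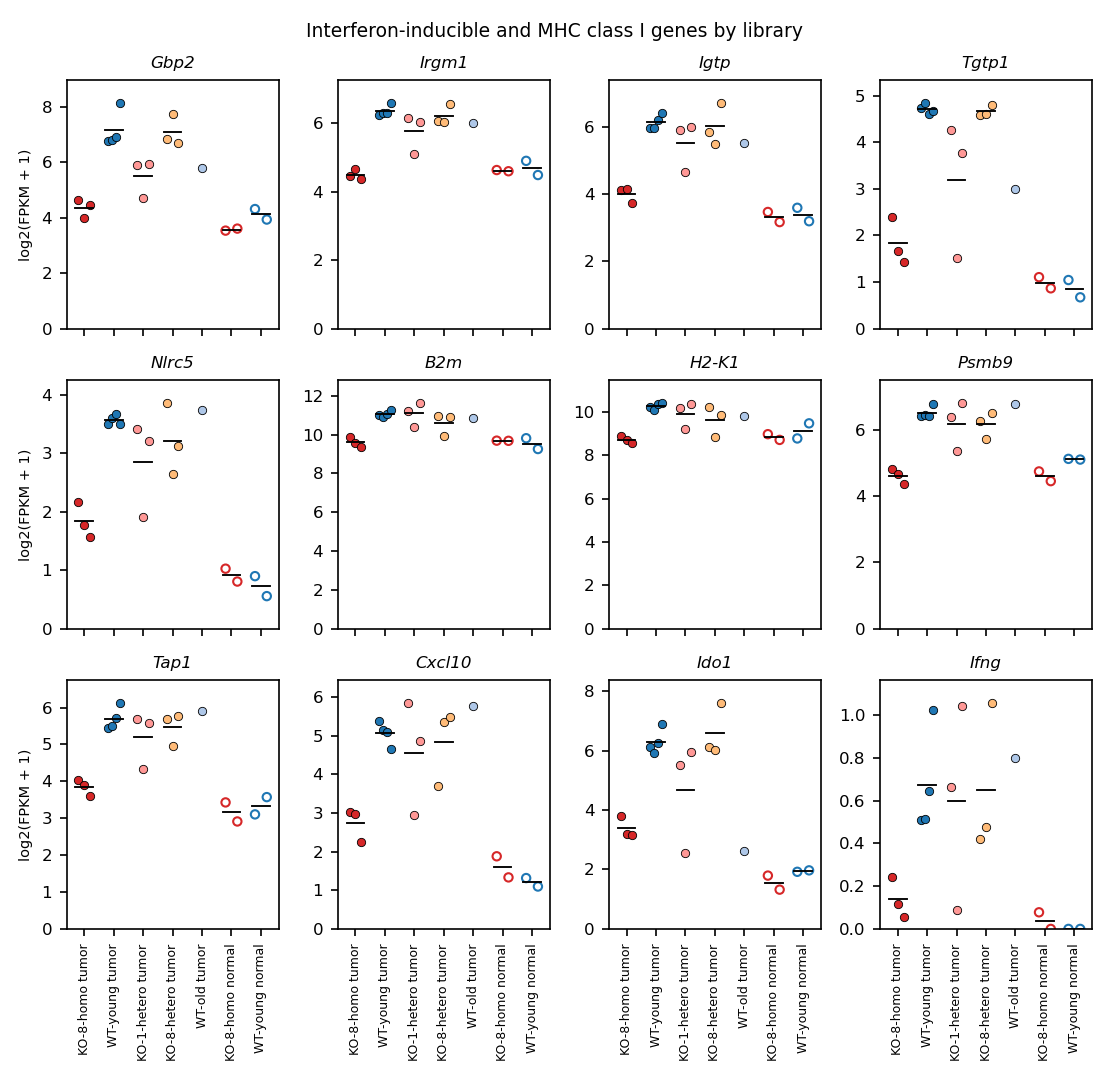
Each panel gives log2(FPKM + 1) of 1 gene in the tumor libraries (filled) and in KO-8-homo and WT-young normal tissue (open), with a bar at the mean of each group of 2 or more. In every panel the 3 KO-8-homo tumors lie below the 4 WT-young tumors, and for Gbp2, Irgm1 and Cxcl10 the lowest of the KO-1-hetero points is KO-1-hetero tumor 2.

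By number passed, mitotic genes formed the next lower group. By median, squamous keratin genes lay further down (−1.37), with 0 of 7 passed and ranges apart for 0. Of 30 cell cycle genes 5 fell, 29 were below 0, 19 had ranges apart, and the median was −0.41. In normal tissue the median of the same genes was 0.55, on the other side of 0. Birc5, the chromosomal passenger protein survivin, was at 29.1, 28.9 and 30.0 FPKM in KO-8-homo and at 59.0, 53.5, 50 and 47.4 FPKM in WT-young tumors (−0.81, limma adjusted p = 0.00833). The KO-8-homo values were almost equal and the wild-type ones all well above them.

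Mki67, the proliferation marker Ki-67, was at 18.8, 18.1 and 20.3 against 33.2, 29.3, 30.4 and 27.2 FPKM (−0.63, limma adjusted p = 0.023). The mitotic cyclins Ccnb2 (−0.71, adjusted p = 0.023) and Ccna2 (−0.59, adjusted p = 0.0232) and the kinetochore motor Cenpe (−0.56, adjusted p = 0.0445) also fell. Nek2, a centrosomal kinase outside the list, was at 6.91, 7.69 and 7.35 against 11.9, 11.7, 11.4 and 10.8 FPKM (−0.58, adjusted p = 0.0186). Top2a (−0.64, adjusted p = 0.0892) and Cdk1 (−0.58, adjusted p = 0.0909) did not pass, though their ranges were apart. No cell cycle gene fell without KO-8-homo tumor 2 or 3, 1 fell without KO-8-homo tumor 1 or without WT-young tumor 1, 2 or 3, and 10 fell without WT-young tumor 4. The number was 2 after quantile normalization and 0 with all 24 libraries or all 14 tumors in the fit.

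Beyond these groups, Reg3g, an antimicrobial lectin of the epithelium, was at 34.6, 43.5 and 51.5 against 376, 251, 283 and 136 FPKM (−2.50, limma adjusted p = 0.0189). Ubd, a ubiquitin-like modifier induced by interferon gamma and TNF, was at 23.9, 19.7 and 17.2 against 105, 83.2, 111 and 189 FPKM (−2.48, adjusted p = 0.00833). Lgals9, the lectin galectin-9, was at 141, 133 and 134 against 238, 252, 276 and 249 FPKM (−0.89, adjusted p = 0.0035). Rbm3, a cold-inducible RNA-binding protein, was at 243, 218 and 243 against 509, 537, 358 and 408 FPKM (−0.93, adjusted p = 0.0454). In all 4 the groups did not overlap. Rbm3 was the single member of 15 heat shock and cold-inducible genes to pass. Of the fetal-like list, Anxa8 (−0.79, adjusted p = 0.0677) and Ly6a, also called Sca-1 (−0.87, adjusted p = 0.119), were lower without passing, and Clu rose.

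The 18 genes that rose were mostly outside the lists, with 2 of them, Clu and Fzd1, in any. Ccl11, the eosinophil chemokine eotaxin, was at 44.1, 37.0 and 36.9 FPKM in KO-8-homo and at 14.9, 9.64, 9.33 and 7.58 FPKM in WT-young tumors (1.86, limma adjusted p = 0.00833). It had the smallest p of the 18. High Ccl11 was not particular to KO-8-homo tumors. It was at 29.9 to 40.5 FPKM in KO-1-hetero, 16.2 to 52.8 in KO-8-hetero and 19.7 in the WT-old tumor, above every WT-young tumor. F13a1, the coagulation factor XIII A chain found in macrophages, was at 15.0, 11.5 and 9.59 against 3.77, 2.92, 3.13 and 1.42 FPKM (1.80, adjusted p = 0.0226).

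Hand2, a transcription factor of gut mesenchyme and enteric neurons, was at 1.44, 1.91 and 1.66 against 0.323, 0.183, 0.403 and 0.0294 FPKM (1.12, limma adjusted p = 0.0186). Igfbp2, an IGF-binding protein, was at 3.05, 2.34 and 2.58 against 0.616, 0.480, 0.380 and 1.16 FPKM (1.16, adjusted p = 0.0307). Both were still higher in normal tissue, where Hand2 was at 2.38 to 7.93 and Igfbp2 at 11.4 to 44.9 FPKM. Hand2 was at 1.78 to 2.34 FPKM in KO-1-hetero, 0.305 to 1.35 in KO-8-hetero and 2.36 in the WT-old tumor. Igfbp2 was at 3.31 to 7.12, 0.533 to 13.3 and 9.06 FPKM in the same groups.

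Clu, the secreted chaperone clusterin that marks regenerating intestinal cells, was at 258, 409 and 260 against 148, 111, 105 and 106 FPKM (1.37, limma adjusted p = 0.0269). Cdkn1c, the imprinted cyclin-dependent kinase inhibitor p57, was at 21.0, 20.5 and 25.9 against 12, 5.08, 7.41 and 7.65 FPKM (1.42, adjusted p = 0.0469). Fzd1, a Wnt receptor, was at 13.4, 13.5 and 14.1 against 7.54, 6.38, 8.98 and 7.17 FPKM (0.79, adjusted p = 0.0229). The KO-8-homo values of Fzd1 were within 1 FPKM of each other, and normal tissue did not share the difference, with 5.84 and 6.15 FPKM under the knockout label and 7.21 and 8.63 FPKM in WT-young. In KO-1-hetero, KO-8-hetero and WT-old tumors Fzd1 was at 11.2 to 11.4, 10.3 to 15.4 and 5.7 FPKM. Clu was at 170 to 338, 113 to 177 and 901 FPKM there, and Cdkn1c at 5.17 to 21, 2.48 to 14.1 and 1.57 FPKM.

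Wfdc21, a small secreted protein with a WAP domain, had the largest rise, from 1.03, 0.904, 0.994 and 0 FPKM in WT-young to 14.3, 6.66 and 5.37 FPKM in KO-8-homo tumors (2.44, limma adjusted p = 0.0307). Fetub, which encodes fetuin-B, was at 4.77, 11.2 and 7.32 against 2.35, 1.66, 1.52 and 1.43 FPKM (1.62, adjusted p = 0.0347). B3galt2 (1.04), Cmah, whose enzyme makes N-glycolylneuraminic acid (0.99), and the mitochondrial carrier Slc25a23 (0.95) also rose. None of the 18 passed without KO-8-homo tumor 2, and 25 genes rose without WT-young tumor 4.

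**Figure D3:**
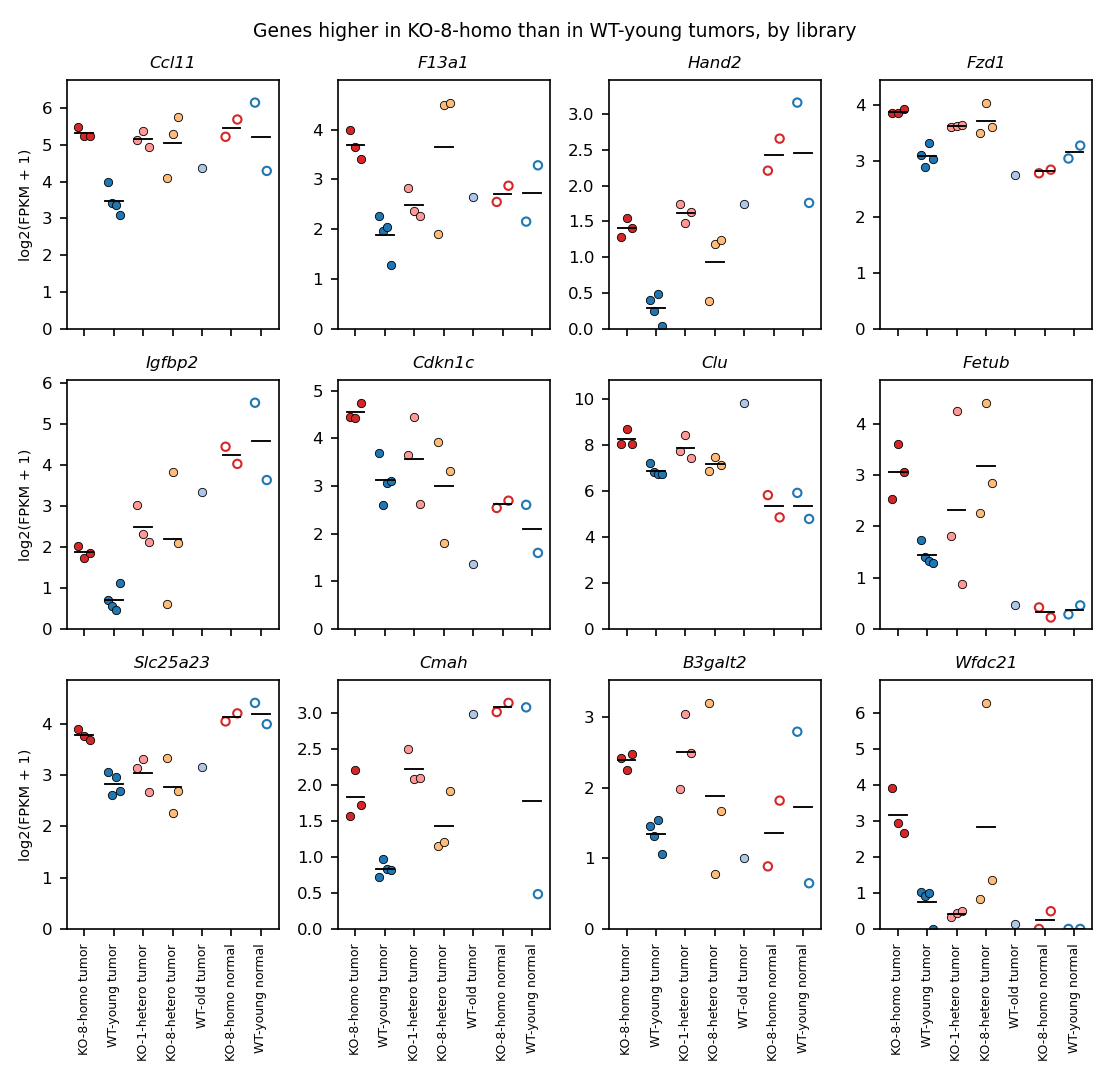
Each panel gives log2(FPKM + 1) of 1 of the 12 genes with the largest rise, in tumors (filled) and in KO-8-homo and WT-young normal tissue (open), with a bar at each group mean. The 3 KO-8-homo tumors lie above the 4 WT-young tumors in each panel, and the WT-young point at 0 for Wfdc21 is WT-young tumor 4.

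Wnt target genes leaned upward without any passing. Of 23 tested, 22 were above 0, the exception being Apcdd1 at −0.01, and 12 had ranges apart. The median was 0.45, against −0.0022 for all genes and −0.04 for the same genes in normal tissue. Notum, a secreted Wnt inhibitor made by cells with high Wnt activity, was at 104, 133 and 82.3 against 78.4, 56.7, 62.3 and 60.3 FPKM (0.70, limma adjusted p = 0.115). Nkd1, a feedback inhibitor, was at 79.1, 80.6 and 61.5 against 53, 47, 47.9 and 31.6 FPKM (0.72, adjusted p = 0.119). The stem cell receptor Lgr5 (0.65), Myc (0.61) and Axin2 (0.36) were also higher in every KO-8-homo tumor, with adjusted p-values of 0.132, 0.12 and 0.216. Each of these genes was lower in normal tissue, for example Notum at 0.211 to 0.510 FPKM.

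Markers of muscle, stroma and epithelium had medians away from 0 without a passed gene. Of 16 smooth muscle genes 0 passed, but all were above 0, 12 had ranges apart, the median was 1.01 and the summed level was 630 to 1323 FPKM in KO-8-homo and 256 to 537 FPKM in WT-young tumors. Des, the muscle intermediate filament, was at 28.1, 26.8 and 80.9 against 9.14, 10, 5.47 and 7.94 FPKM (2.17, limma adjusted p = 0.0539), and Myh11 at 30.6, 36.4 and 74.9 against 20.1, 18.5, 10.6 and 12.3 FPKM (1.5, adjusted p = 0.0936). KO-8-homo tumor 3 had the highest value of both. Medians were also above 0 for fibroblast and collagen (0.72), B and plasma cell (0.77), endothelium (0.58) and macrophage (0.43) genes, with 0 passed in each.

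Epithelial genes lay the other way, with a median of −0.33, 0 of 13 passed and sums of 6909 to 8473 FPKM against 8919 to 16198 FPKM. Krt8 (−0.64, limma adjusted p = 0.183) and Krt18 (−0.37, adjusted p = 0.0913) had ranges apart, and Epcam at 671, 747 and 690 against 712, 760, 833 and 1100 FPKM did not. All 7 libraries thus carried the colon epithelial markers at high levels. The part of muscle, stroma and epithelium in the interferon and Wnt differences was not tested.

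**Figure D4:**
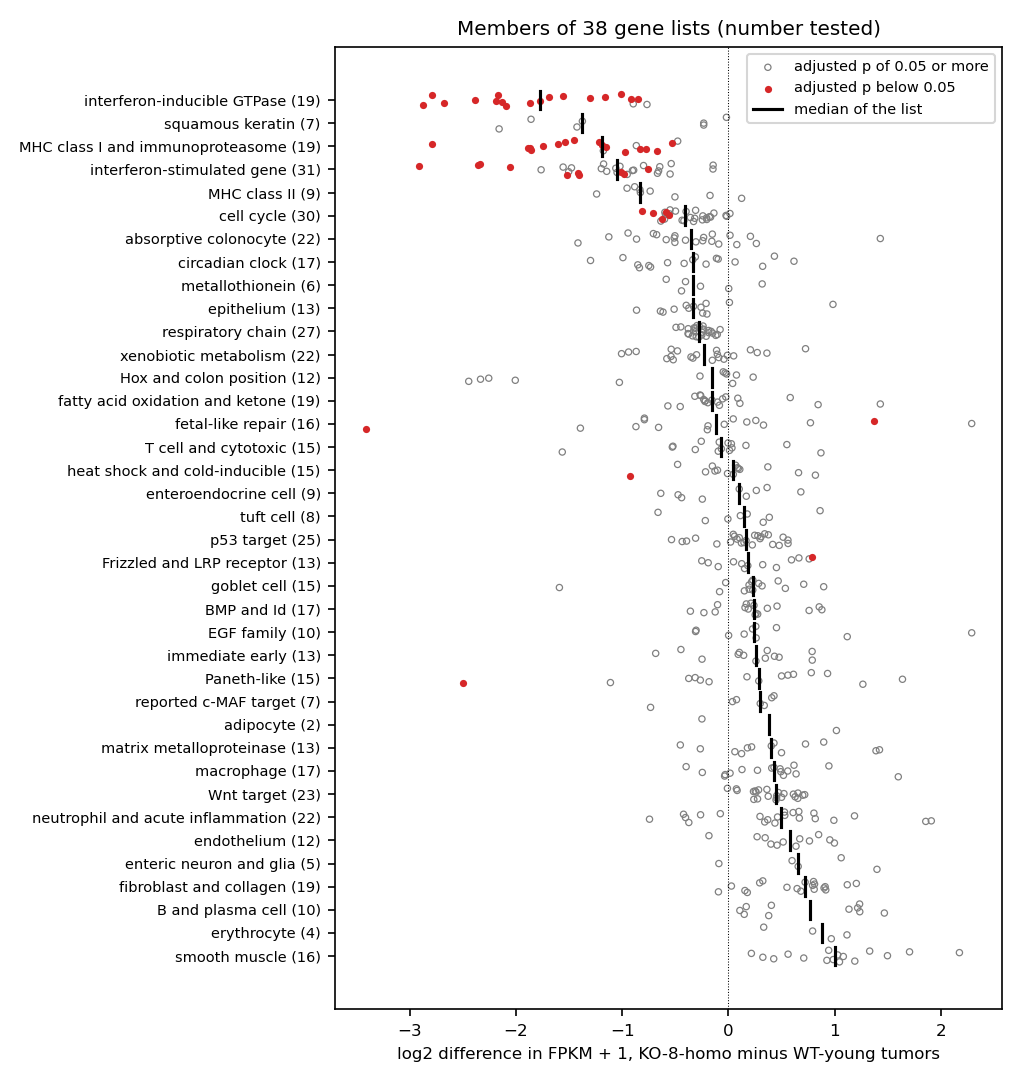
Each row is one of 38 gene lists, with the number tested in parentheses, and each point is a member's log2 difference of KO-8-homo minus WT-young tumors. Filled red points passed an adjusted p of 0.05, and the vertical bar is the median of the list. The 17 GTPases, 16 antigen presentation genes and 10 other interferon-stimulated genes that fell are the red points in the upper rows, and the smooth muscle row at the bottom has all 16 points right of 0.

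Neutrophil genes spread widely within each group. S100a8, a calprotectin subunit, was at 767, 302 and 207 against 100, 209, 112 and 35.7 FPKM, and S100a9, its partner, at 685, 283 and 204 against 92.0, 238, 113 and 30.4 FPKM. The ranges overlapped through KO-8-homo tumor 3 and WT-young tumor 2. The list of 22 neutrophil and acute inflammation genes had a median of 0.50 with 0 passed. The EGF receptor ligand Ereg was at 77.3, 17.1 and 21.3 against 5.04, 8.59, 8.10 and 2.31 FPKM (2.29, limma adjusted p = 0.113), and the largest value was that of KO-8-homo tumor 1, which also led in S100a8.

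Some Hox genes were uneven inside the KO-8-homo group. Hoxd11, a homeobox gene of the distal colon, was at 0.0733 and 0.0324 FPKM in KO-8-homo tumors 1 and 2 but at 7.89 FPKM in KO-8-homo tumor 3. The 4 WT-young tumors had 7.99, 6.71, 12.3 and 13.8 FPKM. Hoxd9 was split alike, at 0.0662, 0.149 and 1.44 against 2.17, 1.42, 2.26 and 1.97 FPKM. The 2 WT-young normal libraries were split as well, with Hoxd11 at 0.464 and 8.01 FPKM. None of the 12 Hox and colon position genes tested passed. The part of colon position in any difference between the groups was not tested.

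**Figure D5:**
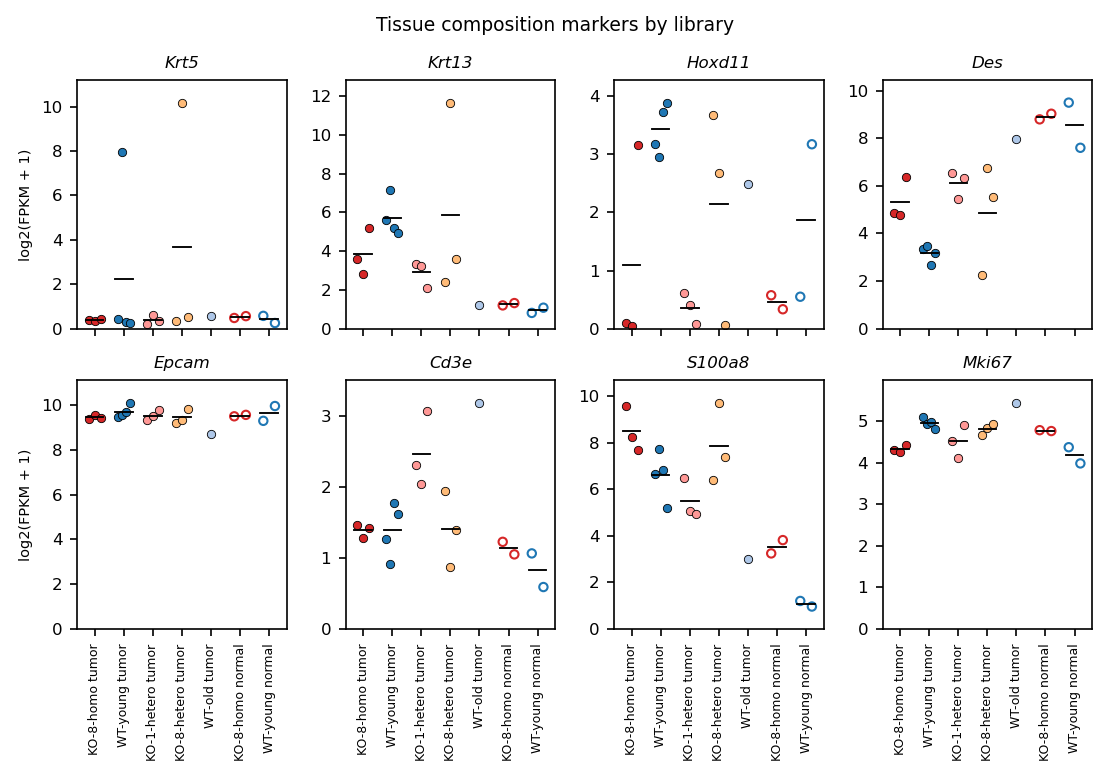
Each panel gives log2(FPKM + 1) of a marker gene in tumors (filled) and in KO-8-homo and WT-young normal tissue (open), with a bar at each group mean. Krt5 marks WT-young tumor 2 and Hoxd11 marks KO-8-homo tumor 3 within their groups, Des is higher in all 3 KO-8-homo tumors than in WT-young ones, and Cd3e overlaps.

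Smaller differences without a passed gene were seen in metabolism and the clock. All 27 respiratory chain genes were below 0, with a median of −0.27 and ranges apart for 18. Cox5a was at 256, 300 and 273 against 334, 365, 386 and 485 FPKM (−0.49, limma adjusted p = 0.132). Of 17 circadian clock genes 13 were below 0, with a median of −0.33. Dbp, a clock output factor, was at 1.69, 3.49 and 2.41 against 9.67, 11.3, 5.28 and 5.31 FPKM (−1.30, adjusted p = 0.0932), and in normal tissue at 2.74 and 6.75 against 33.2 and 54.8 FPKM. The labels give no time of sampling.

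Whether the tumor difference departed from that between the normal tissues was tested as an interaction, with 2 normal libraries in each group. limma passed 11 genes (0.0849% of those tested), all with a negative interaction, and 1350 had an unadjusted p below 0.05. The 11 were Tgtp1 (−3.01), Cxcl10 (−2.73), Gm12250 (−2.66), H2-Q9 (−2.53), H2-Q8 (−2.51), Gm4951 (−2.37), Igtp (−2.06), Nlrc5 (−1.93), Irgm1 (−1.79), Nek2 (−1.28) and Lgals9 (−1.21), with adjusted p-values of 0.0242 to 0.0486. Tgtp1 in normal tissue was at 1.15 and 0.821 FPKM under the knockout label and at 1.06 and 0.593 FPKM in WT-young, all below the lowest KO-8-homo tumor. Nek2 and Lgals9 were higher in normal tissue under the knockout label, which added to their interaction. Nek2 was at 10.4 and 10.9 against 6.76 and 5.62 FPKM there, and Lgals9 at 105 and 98.4 against 86.7 and 76 FPKM. Of the 131 genes that passed in tumors, 129 had an interaction of the same sign. The interaction contains the tumor difference by which these genes were chosen, so this count is not a test. The count of 11 changed with single libraries: 935 genes passed without WT-young normal 1, 22 without WT-young tumor 4, 6 without KO-8-homo tumor 1, 1 without WT-young tumor 3 and 0 without any of the other 7 libraries.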

How the data were processed

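Library preparation used a stranded TruSeq mRNA kit after miRNeasy extraction of total RNA, per the labels' protocols. The authors deposited 1 table per library with the FPKM of 24346 gene symbols. The submitters' processing notes name the mm10 build and the tools TopHat2 2.1.1, Bowtie2 2.2.8, SAMtools 0.1.18 and Cuffdiff 2.2.1, without their roles. No read counts were used, so no count model was run, and the number of libraries limits the precision.

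Groups were taken from the titles. Values were used as deposited, with no further scaling, as log2(FPKM + 1). Genes with 1 FPKM or more in at least 3 of the 7 tumors were tested with limma 3.58.1 (R 4.3.3; lmFit, then eBayes with an intensity trend), two-sided, with Benjamini-Hochberg adjustment over all 12961 genes. Of these, 212 reached 1 FPKM in exactly 3 tumors and 11824 in all 7. The script was tested on simulated data. Mean ± SD are of FPKM, and a fold is a ratio of mean FPKM. Maf and 4 related genes also had an exact permutation test over the 35 splits.

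The comparison, the 38 gene lists and the tests were chosen with earlier results of these data known. The text names Maf, its relatives and Wwox, 12 genes in each direction (those furthest from 0 that passed with ranges apart, 1 of which is not reported here), up to 4 passing members of a list or otherwise 2 by p, and the 5 leading interaction genes. Other named genes were chosen after their values were seen. Promoters are from RefSeq (GRCm38.p6) and positions from GENCODE (GRCm38).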

Additional observations from a re-analysis of the deposited data

Results flagged for a closer look

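In 11 named genes the highest or lowest of the 4 WT-young tumors lay far from the other 3 (Dixon's test at the 95% level). Chance marks about 1 in 20 groups of this kind. Many named genes were screened, so some of the 11 would be marked by chance alone. In 8 of the 11 the distant library was WT-young tumor 4, with Gbp2 at 284, Psmb9 at 107, Psmb10 at 172, Erap1 at 35.4, H2-DMb1 at 93.9, H2-Aa at 1060, Cox7a2 at 354 and Wfdc21 at 0 FPKM. WT-young tumor 1 was distant in Tgtp2, at 23.1 FPKM, and in Clu, at 148 FPKM, and WT-young tumor 2 in Krt5, at 250 FPKM. Without WT-young tumor 4 the log2 difference of Gbp2 was −2.46.

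In 10 named genes the difference between KO-8-homo and WT-young tumors departed from that between the normal tissues (limma interaction, 3 and 4 tumors, 2 and 2 normal libraries). The tumor difference minus the normal difference, on the log2 scale, was −3.01 for Tgtp1, −2.73 for Cxcl10, −2.66 for Gm12250, −2.53 for H2-Q9, −2.37 for Gm4951, −2.06 for Igtp, −1.93 for Nlrc5, −1.79 for Irgm1, −1.28 for Nek2 and −1.21 for Lgals9. For Nek2 and Lgals9, among others, the value includes a normal difference in the other direction. None of the 10 passed with all 24 libraries in the fit.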

How the results depend on the processing

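The count of 131 genes stayed within 1.5 times under 8 alternatives: pseudocounts of 0.1 (121) and 0.5 (144), no filter (116), a filter on all 7 tumors (141), quantile normalization (152), median centring (153), no trend (127) and robust eBayes (130). It was 75 with the replicate block, 64 with all 24 libraries in a 10-group fit, 68 with an absolute log2 difference of at least 1, 36 with the 14 tumors in a 5-group fit, 56 with the WT-old tumor added, and 32 to 183 with 1 tumor left out. Whether the replicate numbers pair the samples is not known. Deviations of same-numbered tumors from their group means correlated at 0.452, −0.247 and −0.198, and those of differently numbered tumors at −0.502 to 0.364. Deviations within a group of 3 or 4 are tied to each other, so these values cannot settle it. The interaction count of 11 became 4 with a pseudocount of 0.1, 21 without a filter, 39 with quantile normalization, 17 with median centring, 0 with the replicate block, 0 with 24 libraries, and 0 to 935 with 1 library left out. The cause was not tested.

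Of the 1169 values for 59 named genes that passed, 849 passed under the alternative, 320 did not and 0 changed sign. Among genes that did not pass, Cd3e changed sign to 0.027 and 0.007 with pseudocounts of 0.1 and 0.5 and to 0.073 with the block, Apcdd1 to 0.111 and Epcam to 0.006 with quantile normalization, and Cd4 to −0.027, Apcdd1 to 0.967 and Krt18 to 0.019 with WT-old added. With 1 tumor left out Cd3e ran from −0.164 to 0.124, Apcdd1 from −0.165 to 0.129 and Mafk from −0.039 to 0.2. No alternative scaling moved the median of all genes by 0.1. Quantile normalization and median centring both even out the library medians, so this is not a test of the scaling. The files give relative depth but no counts, so genes near 1 FPKM such as Ifng have unknown counting error.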
